A study of Mus musculus with 12 samples.

Results

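The Schlafen family was followed through the transcriptomes of mouse bone marrow-derived macrophages (BMDMs), with all 12 deposited libraries. The members, Slfn1, Slfn2, Slfn3, Slfn4, Slfn5, Slfn8 and Slfn9, were found in the table by their gene symbols, and all 7 were listed, among 38739 symbols in all. The family was chosen from the series with the values of these libraries in view, so the levels, fold changes and adjusted p-values below describe it and are not independent support for any pattern. The study asked how loss of cGAS, the cytosolic sensor of double-stranded DNA, alters the macrophage response to lipopolysaccharide (LPS). There were 4 groups of 3 libraries each. BMDMs of wild-type C57BL/6J mice (WT) were left with media alone (untreated, UT) or given LPS of E. coli 026:B6, and BMDMs of cGAS knockout mice on the same background (cGAS-/-) were handled in the same way. Donor mice were male and 8 weeks old, and the deletion was in every cell of the animal. The labels give the stimulus as 100 ng/mL of LPS for 1 h, while the methods of the study give 150 ng/mL for 24 h, so neither dose nor time is settled here. The study calls the 3 libraries of a group technical replicates, so p-values measure only the spread between these libraries, which may be technical.

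Schlafen proteins share an N-terminal domain and are grouped by length. Slfn1 and Slfn2 are the short members, Slfn3 and Slfn4 are intermediate, and Slfn5, Slfn8 and Slfn9 are the long members, which carry a helicase-like C-terminal part. The family was first known from developing and activated T cells, where Slfn1 restrains growth and Slfn2 is needed for quiescence, and several members are interferon-stimulated genes of myeloid cells. LPS reaches interferon genes through TLR4 and its adaptor TRIF, after which secreted interferon beta turns on genes that carry interferon-stimulated response elements (ISREs), and cGAS reaches the same interferon genes through cGAMP and STING.

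All 7 members lie in one cluster on chromosome 11 of the GRCm39 build, between the left end of Slfn5 at 82842100 and the right end of Slfn3 at 83109101 in the GENCODE M39 annotation. Slfn5 (82842100 to 82855666), Slfn2 (82955609 to 82961504), Slfn1 (83007615 to 83013496), Slfn4 (83066012 to 83081042) and Slfn3 (83082123 to 83109101) are read from the plus strand. Slfn9 (82868552 to 82882656) and Slfn8 (82892984 to 82911669) are read from the minus strand. The gene map beside the LPS response shows how the size of the response differed between neighbours.

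**Figure D1:**
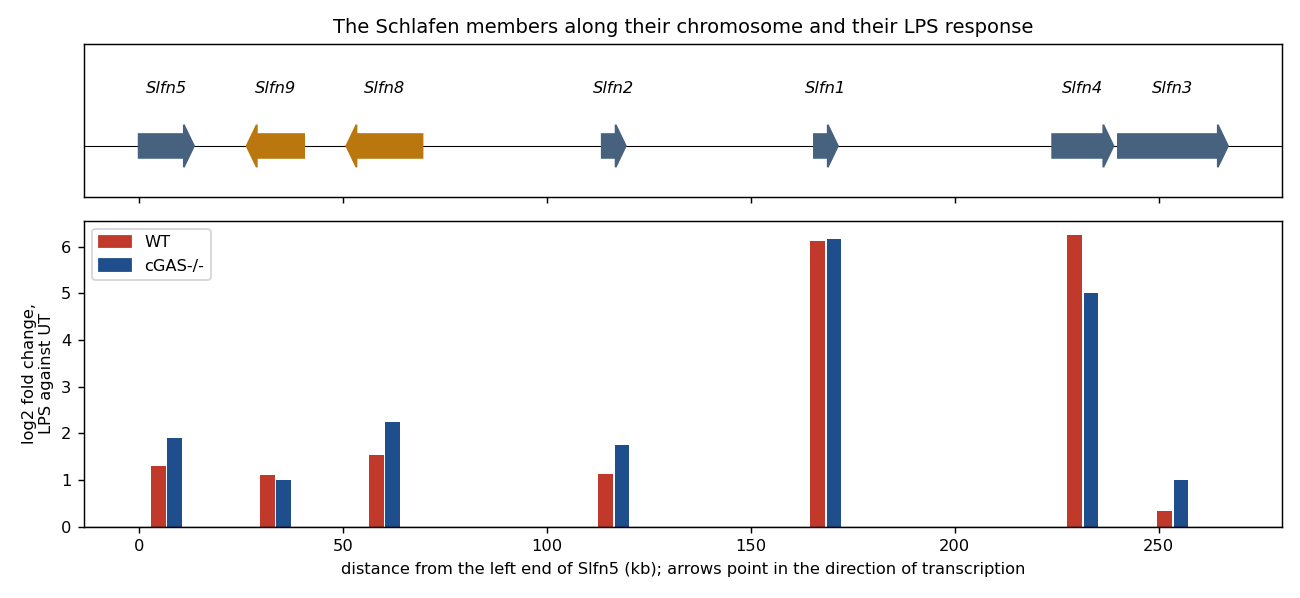
The upper panel draws the 7 genes as arrows at their distance in kb from the left end of Slfn5, and the lower panel gives the log2 fold change of TPM + 1, LPS against UT, as bars for WT and cGAS-/- BMDMs. Slfn1 and Slfn4 have bars between 5.01 and 6.24, and the other 5 members stay at 2.24 or below.

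To see what the members share outside their expression, the 300 bases from 250 before to 50 after the start of each gene's canonical transcript were searched on both strands for an ISRE core (GAAANNGAAA), a GAS element (TTCNNNGAA) and a kappaB element (GGGANNTTCC). The ISRE core was found in 3 of the 7 members (42.9%), against 3.84% of the promoters of 21757 protein-coding genes and 51.9% of those of 54 genes on a list of interferon-stimulated genes. The ISRE core of Slfn5 lay at positions -155 to -146 from the start, that of Slfn8 at -15 to -6 and that of Slfn9 at -45 to -36. No member had the GAS or the kappaB letters in this window, against 8.82% and 1.57% of all promoters. A match of letters is a description of the window and not a bound site. The 250 upstream bases of the long members are shown because these were the members with a match, which is in capitals (chr11:82842678-82842927 for Slfn5, plus strand; chr11:82911670-82911919 for Slfn8 and chr11:82882657-82882906 for Slfn9, both minus strand).
Slfn5: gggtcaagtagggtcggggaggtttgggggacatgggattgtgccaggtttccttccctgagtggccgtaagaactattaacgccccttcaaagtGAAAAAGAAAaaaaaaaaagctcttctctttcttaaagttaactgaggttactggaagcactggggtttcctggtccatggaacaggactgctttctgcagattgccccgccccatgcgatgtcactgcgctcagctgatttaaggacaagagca
Slfn8: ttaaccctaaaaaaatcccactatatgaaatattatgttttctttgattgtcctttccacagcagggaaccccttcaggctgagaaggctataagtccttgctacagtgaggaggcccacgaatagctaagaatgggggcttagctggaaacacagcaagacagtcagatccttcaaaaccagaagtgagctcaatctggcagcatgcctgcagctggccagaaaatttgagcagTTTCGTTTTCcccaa
Slfn9: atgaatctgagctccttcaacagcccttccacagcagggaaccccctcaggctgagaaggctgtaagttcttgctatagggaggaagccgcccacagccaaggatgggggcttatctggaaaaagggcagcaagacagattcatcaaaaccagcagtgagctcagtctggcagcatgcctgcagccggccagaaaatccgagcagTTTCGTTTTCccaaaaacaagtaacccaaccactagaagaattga

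The Slfn8 and Slfn9 windows held the same ISRE letters and also shared a run of 20 bases. Slfn1 and Slfn4, the members with the largest rise after LPS, had no ISRE core in this window. Their upstream windows shared an unbroken run of 15 bases, at positions -43 to -29 of Slfn1 and -73 to -59 of Slfn4. It was in the promoters of 2 of the 21757 genes, which are this pair, and the 20-base run of Slfn8 and Slfn9 was also in 2. The first 9 of the 15 bases also lay upstream of Slfn3, at -9 to -1, and were in 0.892% of promoters. The Slfn1 and Slfn4 windows are shown with the run of 15 bases in capitals (chr11:83007365-83007614 for Slfn1 and chr11:83065762-83066011 for Slfn4, both plus strand), and the run was singled out after the sequences were seen.
Slfn1: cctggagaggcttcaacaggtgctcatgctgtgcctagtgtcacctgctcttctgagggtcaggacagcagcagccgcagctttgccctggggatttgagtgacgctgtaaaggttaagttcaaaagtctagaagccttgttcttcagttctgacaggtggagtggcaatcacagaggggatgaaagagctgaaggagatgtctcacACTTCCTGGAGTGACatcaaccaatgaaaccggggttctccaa
Slfn4: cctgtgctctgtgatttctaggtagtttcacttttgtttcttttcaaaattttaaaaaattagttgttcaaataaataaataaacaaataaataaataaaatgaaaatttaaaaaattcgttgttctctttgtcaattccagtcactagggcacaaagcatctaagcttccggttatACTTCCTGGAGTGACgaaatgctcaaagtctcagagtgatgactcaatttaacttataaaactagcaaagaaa

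Members of the cluster are copies of one another, which limits how far reads can be assigned to one gene. Over stretches of at least 75 bases with at least 95% identity, 30.2% of the Slfn4 transcript was shared with Slfn3 and 22.8% of Slfn3 with Slfn4. Likewise, 19.1% of Slfn9 was shared with Slfn8, 16.8% of Slfn8 with the Slfn10 gene, and 19.0% of Slfn2 with Slfn3. Slfn1 shared no such stretch with any other gene. Values of the members other than Slfn1 are therefore uncertain to the extent that reads from these stretches were split among copies.

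The labels call the cells macrophages, although their extraction step names neutrophils as the source of the RNA. Of the 12 listed macrophage markers, among them Lyz2 and Cd68, 11 reached 1 TPM in at least 1 WT LPS library and 12 did so in each other group, and they summed to 20051 to 36242 TPM, most of it Lyz2. Of the 11 neutrophil markers, 5 to 7 reached 1 TPM in a group. Cgas, the targeted gene, was at 1.19 to 3.25 TPM in the WT libraries and at 0.0703 to 0.291 TPM in the cGAS-/- libraries. WT LPS replicate 3 stood apart from the other libraries, since protein-coding genes took 18.5% of its summed values against 39.7% to 54.4% elsewhere, and 1 ferritin pseudogene, Fth-ps3, took 31.7% against 6.24% to 17.7%. For this reason, the members' fold changes in WT LPS are also given without that library, and without replicate 2, the highest WT LPS library for all 7 members, where this moves them by much. The depth of a library is unknown, because TPM values, transcript abundances scaled to a fixed total, keep no read number.

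In WT BMDMs, LPS raised 5 of the 7 members at an adjusted p under 0.05, where 4.31% of the 11887 tested genes rose and 23.3% fell, and 2 of them also passed the log2 fold change of 2 that the study's methods set, as 1.43% of the genes did. In cGAS-/- BMDMs, LPS raised all 7 members, against 4.76% of genes that rose and 9.06% that fell, and 3 of them passed the log2 fold change of 2, as did 1.94% of the genes. The largest rise was in Slfn1 and Slfn4. Fold changes here are on the scale of log2(TPM + 1), which understates the change of genes with low values, and the test was limma over all 12 libraries.

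Slfn1, a short member, went from 3.53, 6.42 and 5.09 TPM in the 3 WT UT libraries to 329, 542 and 380 TPM in the WT LPS libraries. In cGAS-/- BMDMs, Slfn1 went from 1.75, 0.982 and 1.18 TPM without LPS to 171, 162 and 153 TPM with it. The LPS libraries were far above the UT libraries in both genotypes, with no overlap. The log2 fold change was 6.12 (SE 0.27, limma adjusted p = 4.47e-07) in WT and 6.16 (SE 0.27, adjusted p = 2.38e-07) in cGAS-/- BMDMs, and the WT value was 6.17 without WT LPS replicate 3.

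Slfn4, an intermediate member known from interferon-treated myeloid cells, was at 2.68, 1.49 and 1.04 TPM in WT UT and at 188, 395 and 108 TPM in WT LPS. The cGAS-/- libraries had 1.18, 1.47 and 2.30 TPM without LPS and 86, 84.2 and 78.7 TPM with LPS. The UT libraries of both genotypes overlapped at a low level, and every LPS library was above every UT library. The log2 fold change was 6.24 (SE 0.42, adjusted p = 4.39e-06) in WT and 5.01 (SE 0.42, adjusted p = 1.49e-05) in cGAS-/- BMDMs by limma, and the WT value was 6.69 without WT LPS replicate 3 and 5.755 without replicate 2.

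**Figure D2:**
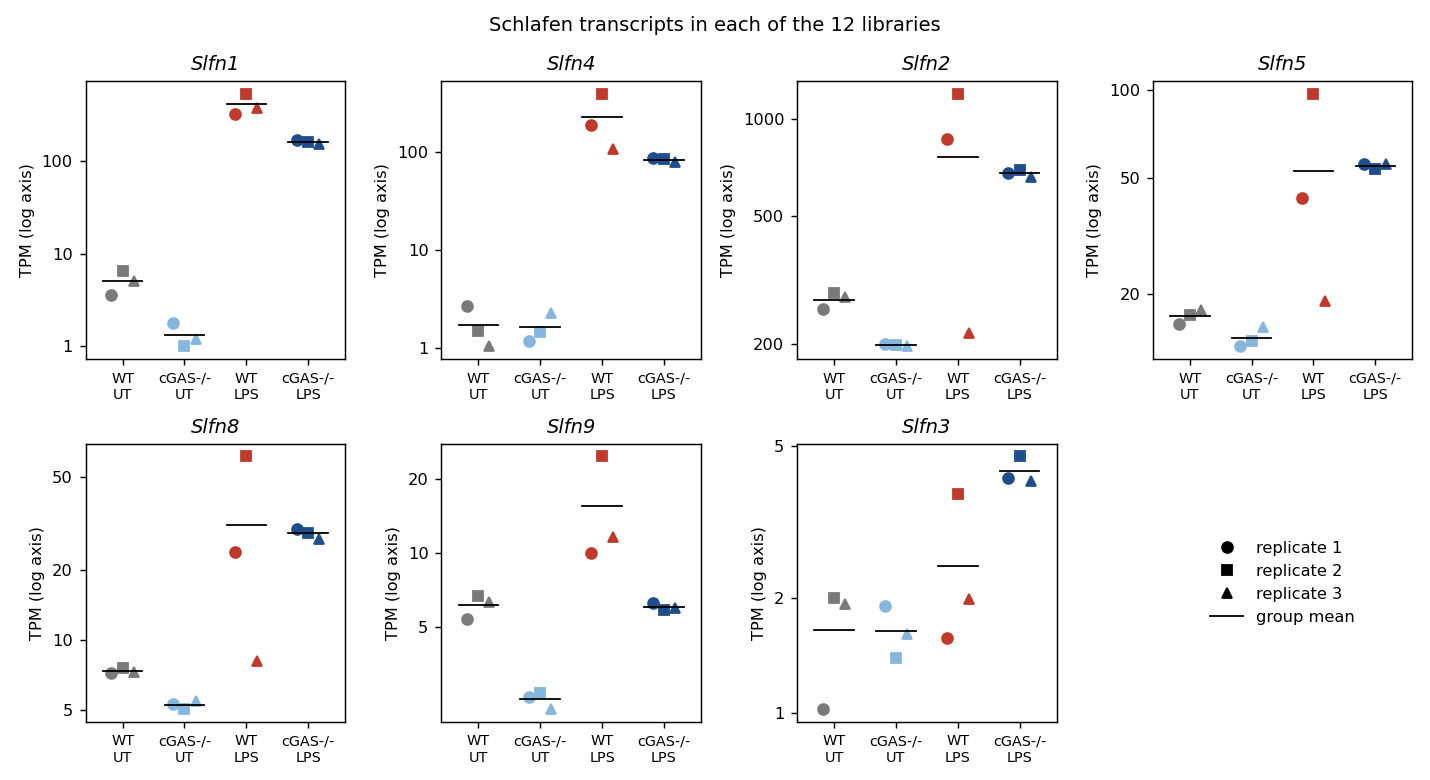
TPM of each member (log axis) in the 12 libraries, with 1 panel per gene, marker shapes for replicates 1 to 3 and a line for the group mean. Slfn1 and Slfn4 move from under 10 TPM to between 78.7 and 542 TPM with LPS, and the triangle of WT LPS (replicate 3) is low for Slfn2, Slfn5 and Slfn8.

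Slfn2, the short member that keeps T cells and monocytes quiescent, was already abundant without LPS. It was at 257, 288 and 280 TPM in WT UT and at 201, 199 and 197 TPM in cGAS-/- UT. With LPS it reached 678, 693 and 658 TPM in cGAS-/- BMDMs, a log2 fold change of 1.76 (SE 0.49, limma adjusted p = 0.0339). In WT LPS it was at 863 and 1194 TPM in replicates 1 and 2 but at 216 TPM in replicate 3, below every WT UT library. The log2 fold change in WT was 1.14 (SE 0.49, limma adjusted p = 0.0986), and leaving out replicate 3 gave 1.88 (adjusted p = 3.41e-06), whereas leaving out replicate 2 gave 0.65 (adjusted p = 0.25).

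Slfn5 and Slfn8, both long members, varied together. Slfn5 was at 15.7, 16.9 and 17.5 TPM in WT UT and at 42.4, 97.2 and 18.9 TPM in WT LPS, and at 13.2, 13.7 and 15.3 TPM in cGAS-/- UT and 55.5, 53.4 and 55.7 TPM in cGAS-/- LPS. Slfn8 was at 7.18, 7.55 and 7.30 TPM in WT UT and at 23.7, 61.2 and 8.11 TPM in WT LPS, and at 5.29, 5.03 and 5.43 TPM in cGAS-/- UT and 29.9, 28.8 and 27.1 TPM in cGAS-/- LPS. For both genes, the 3 WT LPS libraries were spread widely and the 3 cGAS-/- LPS libraries lay close together. In cGAS-/- BMDMs, the log2 fold change with LPS was 1.89 (SE 0.44, limma adjusted p = 0.0151) for Slfn5 and 2.24 (SE 0.51, adjusted p = 0.0133) for Slfn8. In WT BMDMs it was 1.31 (SE 0.44, adjusted p = 0.0481) for Slfn5 and 1.53 (SE 0.51, adjusted p = 0.0469) for Slfn8. The WT values were near the threshold, and both calls held in 8 of 12 other settings, but among the fits with 1 library left out only in that without WT LPS replicate 3, which gave 1.88 for Slfn5 and 2.23 for Slfn8. Without any one of the other 11 libraries the adjusted p was 0.0571 to 0.12 for Slfn5 and 0.0619 to 0.111 for Slfn8, and without WT LPS replicate 2, the highest, the log2 fold changes were 0.73 and 0.85.

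Slfn9, the remaining long member, was at 5.39, 6.66 and 6.33 TPM in WT UT and at 10.0, 24.8 and 11.7 TPM in WT LPS. In cGAS-/- BMDMs it was at 2.58, 2.69 and 2.30 TPM without LPS and at 6.25, 5.88 and 5.96 TPM with LPS. The cGAS-/- LPS libraries thus lay within the range of the WT UT libraries. The log2 fold change was 1.11 (SE 0.29, limma adjusted p = 0.0165) in WT and 1.00 (SE 0.29, adjusted p = 0.0420) in cGAS-/- BMDMs. The WT call was lost without WT UT replicate 1 (adjusted p = 0.0655) and in the fit of the WT libraries alone (adjusted p = 0.171), and the WT value was 1.25 without WT LPS replicate 3 and 0.73 without replicate 2.

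Slfn3, the intermediate member next to Slfn4, had the smallest rise of the members in WT BMDMs. It was at 1.03, 2.0 and 1.93 TPM in WT UT, 1.58, 3.74 and 1.99 TPM in WT LPS, 1.91, 1.40 and 1.61 TPM in cGAS-/- UT, and 4.13, 4.70 and 4.06 TPM in cGAS-/- LPS. The WT groups overlapped and the cGAS-/- groups did not. The log2 fold change was 0.35 (SE 0.25, limma adjusted p = 0.305) in WT and 1.01 (SE 0.25, adjusted p = 0.0199) in cGAS-/- BMDMs, and the WT value was 0.42 (adjusted p = 0.23) without WT LPS replicate 3 and 0.088 (adjusted p = 0.728) without replicate 2. Counted by libraries alone, every LPS library was above every UT library for 5 members in WT, against 5.31% of genes, and for all 7 in cGAS-/- BMDMs, against 15.5% of genes. The median log2 fold change with LPS was 1.31 over the members and -0.46 over all tested genes in WT, and 1.89 against -0.20 in cGAS-/- BMDMs. Median ratio scaling, which divides each library by the median ratio of its values to the mean profile, moved the WT median over all genes to -0.02, and all 7 members were then called higher in WT, as were 8.35% of genes.

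The calls in cGAS-/- BMDMs differed in how much they rested on single libraries. Those of Slfn1 and Slfn4 held without any one library in both genotypes, and that of Slfn8 was lost only without cGAS-/- LPS replicate 1 (adjusted p = 0.0505). Slfn5 was lost without cGAS-/- UT replicate 1 or 2 or any cGAS-/- LPS library (adjusted p = 0.0501 to 0.0573), and Slfn3 without cGAS-/- UT replicate 2 or 3 or any cGAS-/- LPS library (0.0586 to 0.0852). The calls of Slfn2 and Slfn9 held only where 1 of the WT LPS libraries was left out, and were otherwise at an adjusted p of 0.0504 to 0.0998 for Slfn2 and 0.0626 to 0.134 for Slfn9.

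**Figure D3:**
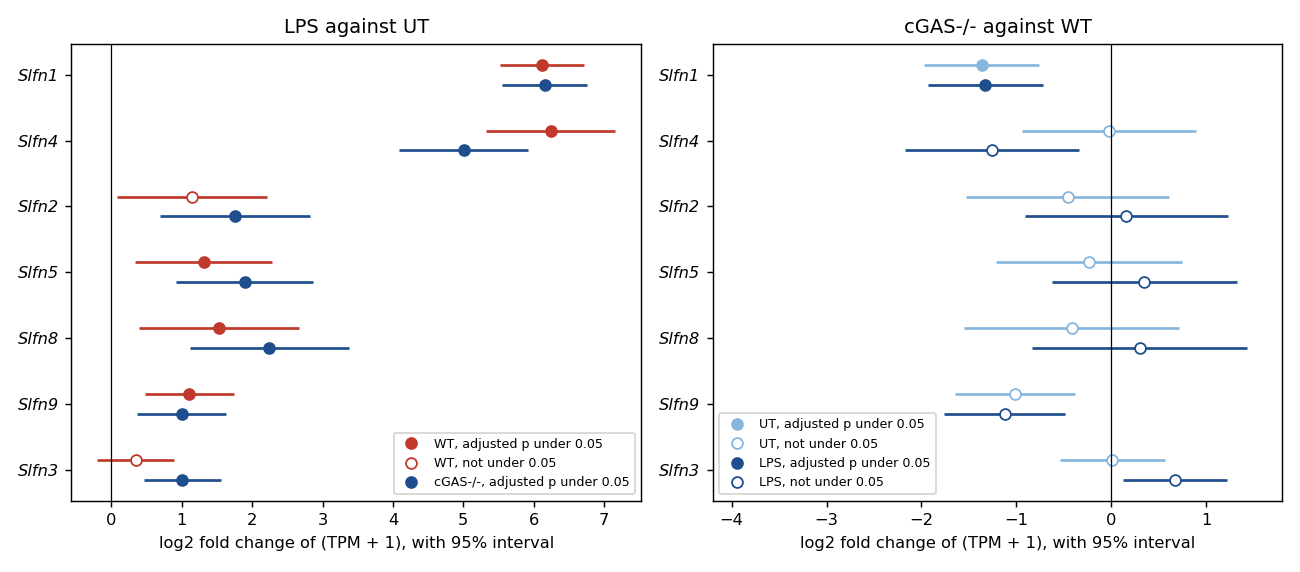
Log2 fold change of TPM + 1 with its 95% interval for each member, LPS against UT on the left (WT red, cGAS-/- blue) and cGAS-/- against WT on the right (UT light blue, LPS dark blue), filled where the adjusted p was under 0.05. Slfn1 is the single member with filled points at both genotype contrasts, at -1.37 and -1.33.

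Without LPS, Slfn1 was the only member called between genotypes. Its cGAS-/- values of 0.982 to 1.75 TPM lay below the WT values of 3.53 to 6.42 TPM, a log2 fold change of -1.37 (95% interval -1.97 to -0.77, limma adjusted p = 0.0276), in a comparison where 1.58% of genes fell and 0.252% rose. The group means were 1.31 ± 0.40 TPM (SD, n = 3) in cGAS-/- and 5.01 ± 1.45 TPM (SD, n = 3) in WT. Slfn9 was also below WT in every cGAS-/- library, with a log2 fold change of -1.01 (95% interval -1.65 to -0.38, adjusted p = 0.156), as were Slfn2 (-0.46), Slfn8 (-0.42) and Slfn5 (-0.23). Lower values in every cGAS-/- library were thus seen for 5 of the 7 members and for 18.4% of all tested genes. Slfn3 and Slfn4 overlapped between genotypes, with log2 fold changes of 0.01 and -0.02. The median over the members was -0.42 and over all tested genes -0.04.

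The number of members called in the UT comparison depended on how the spread was estimated. In the fit of the UT libraries alone, 4 members were called lower in cGAS-/- BMDMs, namely Slfn1 (adjusted p = 0.0176), Slfn2 (0.00481), Slfn8 (0.0141) and Slfn9 (0.00371), where 7.07% of all genes were called lower. Without WT LPS replicate 3, 3 members were called, namely Slfn1, Slfn2 and Slfn9, where 4.28% of genes were called lower, and without any one of the 6 UT or the 3 cGAS-/- LPS libraries the adjusted p of Slfn1 was between 0.0546 and 0.187. No member was called with a pseudocount of 5, where the log2 fold change of Slfn1 was -0.66 (adjusted p = 0.242), nor after median ratio scaling (-1.27, adjusted p = 0.0568) or scaling to the protein-coding total (-1.36, adjusted p = 0.0573). A fit with a replicate block called no member either. Markers of other cells also moved with genotype, and their part in these results was not tested. The 10 B cell markers summed to 111 to 136 TPM in WT UT and 20.6 to 29.4 TPM in cGAS-/- UT, with 6 and 2 of them reaching 1 TPM and Igkc and Ighm the most abundant. The 11 neutrophil markers summed to 173 to 244 TPM in WT UT and 85.8 to 157 TPM in cGAS-/- UT, but did not all go one way. The most abundant, S100a8 and S100a9, overlapped between genotypes. Elane was at 0.774 to 0.945 TPM in WT UT and at 0 in every cGAS-/- UT library. Csf3r was higher in every cGAS-/- UT library, at 14.8 to 19.3 TPM against 11.6 to 14.6 TPM in WT UT. The 10 T and NK cell markers summed to at most 1.26 TPM in any library. In such bulk samples, fewer cells of a type and less RNA per cell cannot be told apart.

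With LPS, 3 members lay below WT in every cGAS-/- library, 1 lay above it and 3 overlapped. Slfn1 was again the only member called, with 153 to 171 TPM in cGAS-/- LPS and 329 to 542 TPM in WT LPS, a log2 fold change of -1.33 (95% interval -1.93 to -0.73, limma adjusted p = 0.0313), where 1.00% of genes were called lower and 1.36% higher. The group means were 162 ± 9.39 TPM (SD, n = 3) in cGAS-/- and 417 ± 111 TPM (SD, n = 3) in WT. Slfn4 was lower in every cGAS-/- LPS library, with a log2 fold change of -1.26 (95% interval -2.18 to -0.34, adjusted p = 0.155), and so was Slfn9, with -1.12 (95% interval -1.76 to -0.49, adjusted p = 0.0807). These 3 of 7 members compare with 5.17% of all tested genes that were lower in every cGAS-/- LPS library. In contrast, Slfn3 was higher in every cGAS-/- LPS library, as were 12.6% of genes, with a log2 fold change of 0.67 (95% interval 0.12 to 1.22, adjusted p = 0.198). The groups overlapped for Slfn2 (0.16), Slfn5 (0.35) and Slfn8 (0.30), whose values in WT LPS replicate 3 were the lowest of all LPS libraries. The median was 0.16 over the members and 0.20 over all tested genes. Beside this contrast, the B cell markers summed to 30.9 to 46.3 TPM in WT LPS and 3.41 to 9.40 TPM in cGAS-/- LPS, and the neutrophil markers to 92.0 to 403 TPM and 98.1 to 125 TPM, and their part was not tested.

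The genotype contrast after LPS shifted when WT LPS replicate 3 or its scale was dealt with. Median ratio scaling moved the median over all genes from 0.20 to -0.02. Under that scaling, Slfn1 (-1.83, limma adjusted p = 0.00552), Slfn4 (-1.76, adjusted p = 0.00234) and Slfn9 (-1.60, adjusted p = 0.00362) were called lower, as were 2.26% of all genes. Without WT LPS replicate 3, 4 members were called lower in cGAS-/- LPS, namely Slfn1, Slfn2 (-0.59, adjusted p = 0.0192), Slfn4 (-1.70, adjusted p = 0.0117) and Slfn9 (-1.26, adjusted p = 0.0238), where 4.39% of genes were called lower. Both changes together, a setting added after the data were seen, called these same 4 members and 7.59% of genes lower. Slfn3 was at 0.60 (adjusted p = 0.204) without WT LPS replicate 3. Leaving out WT LPS replicate 2 instead brought Slfn4 to -0.77 (adjusted p = 0.0946) and called Slfn1 and Slfn9 lower and Slfn3 (0.93, adjusted p = 0.00892) and Slfn5 (0.93, adjusted p = 0.0374) higher, in a fit that called 3.96% of genes lower and 24.5% higher. When WT LPS replicate 1 was left out, Slfn1 (-1.48, adjusted p = 0.0241) and Slfn9 (-1.36, adjusted p = 0.0338) were called lower, as were 1.65% of genes. Slfn9 was thus called lower whichever WT LPS library was left out (-0.75, adjusted p = 0.00707, without replicate 2), whereas the calls of Slfn2, Slfn3, Slfn4 and Slfn5 depended on which one it was. Those were the only 3 of the 12 fits with 1 library left out that called Slfn9. Without any one of the other libraries its adjusted p was 0.124 to 0.248, and 3 of 12 other settings called it. Slfn1 was lower in cGAS-/- LPS under every setting tried, with log2 fold changes of -1.83 to -1.12, although its adjusted p was above 0.05 in 4 of 12 other settings and without any one of 7 libraries, where it was 0.0573 to 0.154. Those settings were a pseudocount of 0.1, weights per sample, the replicate block and the fit of the LPS libraries alone, which called no member and 0.0421% of genes and gave Slfn1 an adjusted p of 0.344.

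**Figure D4:**
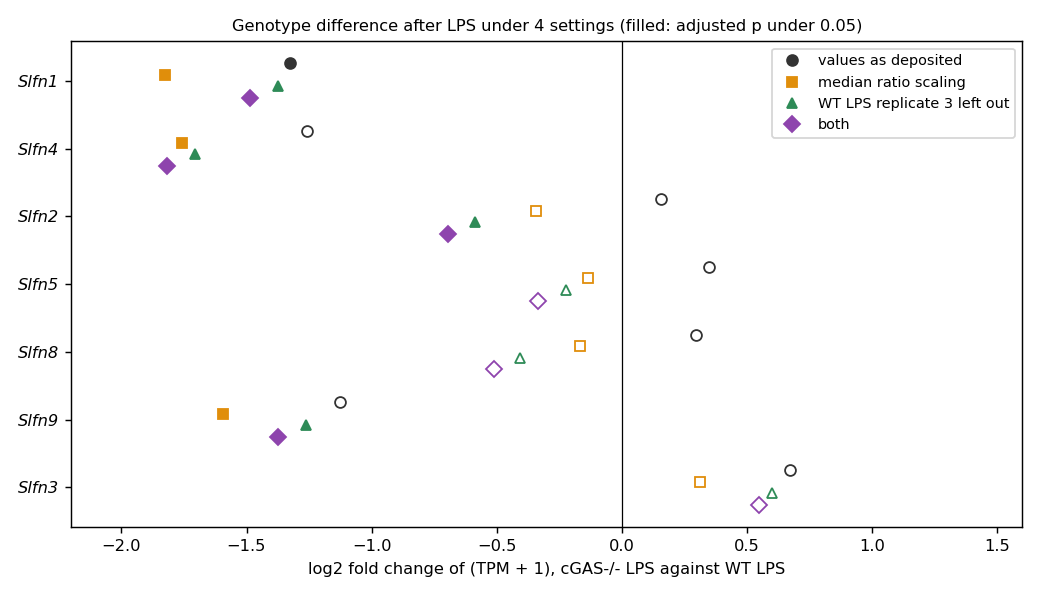
Log2 fold change of TPM + 1, cGAS-/- LPS against WT LPS, for each member with the values as deposited, after median ratio scaling, without WT LPS replicate 3 and with both, filled where the adjusted p was under 0.05. Slfn1, Slfn4 and Slfn9 lie between -1.83 and -1.12 in all 4, Slfn2, Slfn5 and Slfn8 cross from above 0 to below it, and Slfn3 stays above 0.

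Because Slfn2 lies in the same cluster and was abundant in all libraries, the other 6 members were also set against Slfn2 within each library, which removes any scale factor of the library. Without LPS, Slfn1 was at 1.37, 2.23 and 1.82% of the Slfn2 TPM in WT and at 0.872, 0.493 and 0.602% in cGAS-/- BMDMs. With LPS, it rose to 38.1, 45.4 and 176% in WT and to 25.3, 23.5 and 23.2% in cGAS-/- BMDMs. Slfn4 was at 21.8, 33.0 and 49.7% of Slfn2 in WT LPS and at 12.7, 12.2 and 11.95% in cGAS-/- LPS, and Slfn9 was at 1.16, 2.08 and 5.39% against 0.922, 0.849 and 0.905%. The WT libraries were above the cGAS-/- libraries in each case, and the third WT LPS library was the highest for all 3 genes. Without LPS, the ratio to Slfn2 was lower in every cGAS-/- library for 2 of 6 members (Slfn1 and Slfn9), against 5.87% of genes. It went the other way for Slfn5 and Slfn3, which were higher in every cGAS-/- library, though only narrowly for Slfn3. Slfn4 and Slfn8 overlapped there. With LPS, the ratio was lower in every cGAS-/- library for 3 of 6 (Slfn1, Slfn4 and Slfn9), against 3.41% of genes, and Slfn3, Slfn5 and Slfn8 overlapped. The share of all genes with a higher ratio was not counted. A comparison of 3 libraries with 3 cannot give an exact permutation p below 0.1, so these ratios are left as descriptions, and they show unequal change within the cluster and not that Slfn2 was constant. Slfn2 overlaps the Slfn10 gene on the opposite strand, so reads of both could be mixed if strand was not used in counting.

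**Figure D5:**
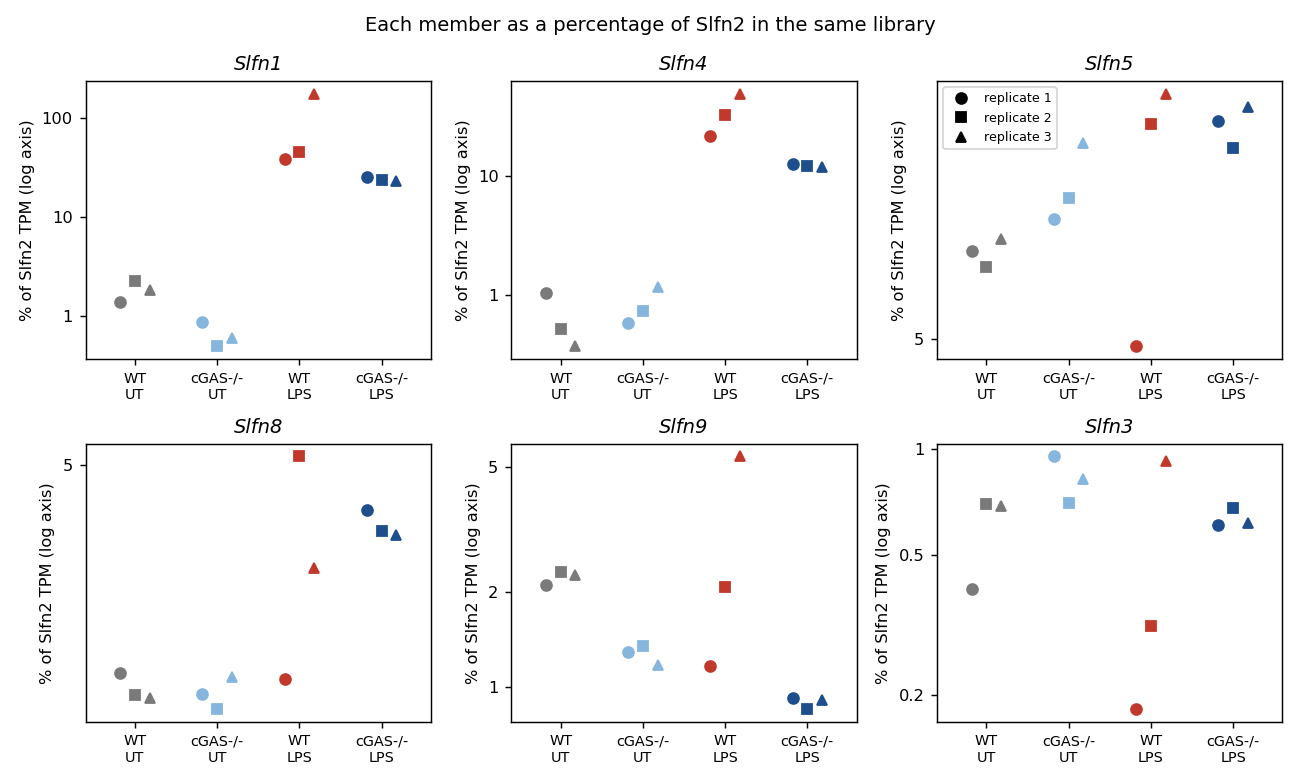
Each of the other 6 members as a percentage of the Slfn2 TPM of the same library (log axis), with marker shapes for replicates 1 to 3. For Slfn1, Slfn4 and Slfn9 every WT LPS point lies above every cGAS-/- LPS point, and the Slfn1 points without LPS lie at 2.23% or below.

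The difference of the LPS effect between genotypes was tested as an interaction term, and no member was called by limma, where 0.732% of genes were called with a difference above 0 (cGAS-/- minus WT) and 0.168% with one below 0. The count of members at an unadjusted p under 0.05 was also 0, against 11.1% of all genes. For Slfn1 the difference was 0.04 (95% interval -0.81 to 0.89), an interval that spans 0. Its sign turned with a pseudocount of 5 (-0.65) and with median ratio scaling (-0.55). The difference for Slfn4 was -1.24 (95% interval -2.53 to 0.06, adjusted p = 0.479), and it was -1.75 (adjusted p = 0.0336) after median ratio scaling and -1.81 (adjusted p = 0.0122) with that scaling and without WT LPS replicate 3, but -0.75 (adjusted p = 0.251) without replicate 2. For the other members the difference was -0.11 in Slfn9 and 0.58 to 0.71 in Slfn2, Slfn3, Slfn5 and Slfn8, each with an interval that included 0. Without WT LPS replicate 3, no member was called either, and the difference was -0.0089 for Slfn1, -1.68 for Slfn4 (adjusted p = 0.0649), -0.12 for Slfn2, 0.0087 for Slfn5, 0.011 for Slfn8, 0.59 for Slfn3 and -0.25 for Slfn9. Leaving out WT LPS replicate 2 gave 1.16 for Slfn5 (adjusted p = 0.0726), 1.40 for Slfn8 (adjusted p = 0.0694), 1.11 for Slfn2 and 0.92 for Slfn3, which was called there (adjusted p = 0.0493), where 11.8% of genes were called above 0 and 1.28% below it.

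The percentages of Slfn2 compare libraries within a gene. The order of levels between genes is given only for Slfn1 and Slfn2, whose values carry at most 6 significant digits in all 12 libraries, as the value of a single transcript has, while most values of Slfn3, Slfn4, Slfn8 and Slfn9 had 14 or more, as an average over transcripts gives. The annotation has 2 transcripts for Slfn1 and 1 for Slfn2, so the comparison is uncertain for Slfn1. Slfn2 was above Slfn1 in 11 of the 12 libraries, and the exception was WT LPS replicate 3. For Slfn1 the order of the groups was cGAS-/- UT (1.31 TPM), WT UT (5.01 TPM), cGAS-/- LPS (162 TPM) and WT LPS (417 TPM), with no overlap between neighbours. For Slfn4 the 2 UT groups overlapped, and cGAS-/- LPS (83.0 ± 3.85 TPM, SD, n = 3) and WT LPS (230 ± 148 TPM, SD, n = 3) followed without overlap.

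Across the 12 libraries, which share the 4 groups and the scale of WT LPS replicate 3, Pearson's r of log2(TPM + 1) was 0.996 between Slfn5 and Slfn8, 0.976 between Slfn1 and Slfn4, and 0.364 between Slfn3 and Slfn9, the lowest of the pairs. Without WT LPS replicate 3 these values were 0.996, 0.978 and 0.414, and r between Slfn1 and Slfn2 was 0.995, against 0.802 with all 12 libraries. All these values describe the pattern over the groups and have no test. The genes outside the family most like Slfn1 were Ifi47 (r = 0.997), an interferon-inducible GTPase, Trex1 (0.995), the exonuclease that degrades cytosolic DNA, and Usp18 (0.994), which removes ISG15. Those most like Slfn4 were Gbp5 (0.992), Gbp3 (0.991) and Oasl1 (0.989), all interferon-stimulated genes. Slfn8 was most like Parp12 (0.992), Slfn2 most like Adar (0.989), Slfn5 most like Gm12250 (0.990), Slfn9 most like Cttn (0.954) and Slfn3 most like Pgm1 (0.944).

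Of a list of 55 interferon-stimulated genes, 52 were tested, and LPS raised 44 of them and lowered 1 in WT BMDMs and raised 47 in cGAS-/- BMDMs, where LPS raised 4.31% and 4.76% of all genes. The top ones were Ccl5, a chemokine, with a log2 fold change of 8.36 (adjusted p = 8.02e-07) in WT and 8.24 (adjusted p = 4.69e-07) in cGAS-/- BMDMs, Cxcl10 with 5.97 in WT and Isg15 with 5.82 in cGAS-/- BMDMs. The one that fell was Irf8 (-0.85, adjusted p = 0.0447). Between genotypes, Ifi27l2a (-2.58, adjusted p = 0.0311) and Ifi47 (-1.03, adjusted p = 0.0344) were lower in cGAS-/- BMDMs without LPS. With LPS, Tgtp1 (-2.21, adjusted p = 0.0331), Cxcl10 (-1.43, adjusted p = 0.00582) and Igtp (-1.40, adjusted p = 0.0436) were lower. The list median was -0.49 without LPS and -0.33 with LPS, against -0.04 and 0.20 over all tested genes, and no gene of the list was called by limma for the difference of the LPS effect. Without WT LPS replicate 3, LPS raised 50 of the 52 and lowered 1, Irf8, in each genotype, where 8.30% of all genes rose in WT and 9.27% in cGAS-/- BMDMs. In that fit 17 were lower in cGAS-/- BMDMs without LPS and 26 with LPS (list medians -0.49 and -0.67, against -0.04 and 0.04 over all genes), where 4.28% and 4.39% of all genes were lower, and 3 were called below 0 for the difference (Tgtp1 -2.87, Isg20 -1.74 and Cxcl10 -0.998), as were 1.62% of all genes. The log2 fold changes were then -2.92 for Tgtp1, -1.58 for Cxcl10 and -1.03 for Igtp between genotypes with LPS, and 8.74 for Ccl5, 6.13 for Cxcl10 and -0.50 for Irf8 with LPS in WT, and -0.82 for Irf8 in cGAS-/- BMDMs. The list is not given without WT LPS replicate 2, a fit that called 24.5% of all genes higher and 3.96% lower in cGAS-/- LPS.

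On a second list of 8 genes of interferon signalling, 7 were tested. Ifnb1, the gene of interferon beta, rose with LPS by a log2 fold change of 3.10 (adjusted p = 1.58e-06) in WT and 2.02 (adjusted p = 2.38e-05) in cGAS-/- BMDMs, and was lower in cGAS-/- LPS than in WT LPS (-1.20, adjusted p = 0.00597). Socs3, an inhibitor of cytokine receptors, also rose in both genotypes (4.77 and 6.08), and Ifngr1, a chain of the interferon gamma receptor, fell in WT BMDMs (-1.80, adjusted p = 0.0477). With all libraries, the other members of this list were not called. Without WT LPS replicate 3, Ifnb1 rose by 3.01 in WT and was lower by a log2 fold change of -1.12 in cGAS-/- LPS (adjusted p = 0.00271), Socs3 rose by 5.23 in WT, and Ifngr1 fell by 0.85 (adjusted p = 9.27e-04). In that fit 3 genes of the list rose and 1 fell in cGAS-/- BMDMs, where 9.27% of all genes rose and 21.9% fell. Ptpn6, a tyrosine phosphatase (0.88, adjusted p = 0.0285), and Ifngr1 (-1.02, adjusted p = 1.14e-04) were called there as well. The difference of the LPS effect was then called for Ifnb1 (-0.99, adjusted p = 0.0324).

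Within 500 kb of the cluster, the annotation has 25 other protein-coding genes, of which 16 were tested. With LPS, 4 of the 16 rose in WT (Ccl5, Ccl4, Heatr9 and Ccl3) and 3 in cGAS-/- BMDMs (Ccl5, Ccl3 and Heatr9), all on the side of Slfn3, and Rad51d fell in WT and Ccl6 in cGAS-/- BMDMs, where 4.31% and 4.76% of all genes rose and 23.3% and 9.06% fell. Ccl6, a chemokine, was the one neighbour called between genotypes with all libraries, with log2 fold changes of -2.04 (adjusted p = 0.00474) without LPS and -2.48 (adjusted p = 0.00168) with LPS. The latter was -2.86 when WT LPS replicate 3 was left out, and Ccl9 was then also called lower (-1.60) and Ccl4 higher (1.14) in cGAS-/- BMDMs without LPS, and Ccl3 higher (0.75) with LPS. In that fit 7 neighbours rose and 2 fell with LPS in each genotype, where 8.30% of genes rose and 26.9% fell in WT and 9.27% and 21.9% in cGAS-/- BMDMs. Further symbols that start with Slfn were listed but are not among the 7 members. Slfn10-ps, which lies inside the cluster, was at 2.25 to 16.7 TPM and was called in no comparison with all libraries, with log2 fold changes of 0.55 in WT and 0.14 in cGAS-/- BMDMs after LPS. The WT value was 1.198 (adjusted p = 0.00449) without WT LPS replicate 3, where Slfn10-ps was also called lower in cGAS-/- LPS (-0.96, adjusted p = 0.0410), and -0.023 without replicate 2. Slfn14 was listed at 0 in 11 of 12 libraries, Slfn5os, an antisense gene that overlaps Slfn5, was at 0 to 0.815 TPM, and Slfnl1 was listed at 0 in every library.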

How the data were processed

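Total RNA of BMDMs was made into 12 strand-specific libraries (4 groups of 3) per the labels. The authors mapped reads with STAR to GRCm39 and quantified them with Kallisto, and fastp is also named in the submitters' processing notes, with versions and annotation not given in the sources used here. The deposited table is called normalized counts, but its values are not whole. They were taken as TPM from the authors' Kallisto run, as means over the transcripts that carry one symbol. No source names the unit, which was read from the digits of the values. Columns sum to 447189 to 709802, and the depth is unknown. Whether the authors' counting used strand is not given in the sources used here, which bears on Slfn2, overlapped by Slfn10 on the opposite strand, and on Slfn5, overlapped by the antisense gene Slfn5os.

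A gene was tested if it reached 1 TPM in 3 or more libraries once totals were made equal, a step used for the filter alone (11887 of 38739 symbols, all 7 members among them). Values were fitted as log2(TPM + 1) with limma 3.58.1 in R 4.3.3, with a mean per group over all 12 libraries and a variance trend, and p-values were adjusted by Benjamini-Hochberg over all tested genes. An adjusted p under 0.05 was a call. The methods of the study name limma and edgeR, and edgeR was not used because the values are not counts. The members, gene lists, marker lists and motifs were chosen with earlier results of these data known. Named were the members, other Slfn symbols, the 3 genes most like each member, and the 2 list genes with the largest change each way in a comparison, or all where 5 or fewer were called. Loci and promoters came from GRCm39 with GENCODE M39, shared stretches from blastn 2.17.0. Replicate numbers did not pair the libraries. Alternatives were other pseudocounts, filters and scalings, fits of only the groups compared, library weights, no variance trend, a replicate block, a log2 fold change limit and leaving out each library.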

Additional observations from a re-analysis of the deposited data

How the results depend on the processing

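Depth is unknown for TPM values, so no limit from counting error can be given. Of the members' fold changes under settings other than leaving out a library, 346 kept their direction and side of the threshold, 23 lost a call, 23 gained one and 21 reversed. When 1 library was left out, 327 kept them, 68 lost a call, 11 gained one and 14 reversed. Without LPS, the number of members called between genotypes was 1, with the share of all genes called in either direction in brackets (1.83%). It was 0 with a pseudocount of 5 (2.66%), median ratio scaling (1.79%) or scaling to the protein-coding total (2.1%). Past a log2 fold change of 2 it was 0, with no share counted. The number was 2 after quantile normalization (1.89%), 4 from only the groups compared (10.4%) and 4 with weights per sample (11.5%). It was 3 with median ratio scaling and WT LPS replicate 3 left out (6.52%), and 0 to 3 without 1 library (0.752% to 5.5%). With LPS, the number called between genotypes was 1 (2.36%). It was 0 with a pseudocount of 0.1 (1.37%), only the groups compared (0.0421%) or weights per sample (2.49%). Past a log2 fold change of 2 it was also 0, with no share counted. The number was 2 after quantile normalization (4.64%), 3 after median ratio scaling (4.32%) and 4 with WT LPS replicate 3 left out as well (13.6%). Without 1 library it was 0 to 4 (0.578% to 28.5%). The number raised by LPS in WT was 5, now with the share of all genes raised in brackets (4.31%). It was 3 with a pseudocount of 0.1 (3.84%) or no filter (1.79%), and 2 from only the groups compared (1.4%) or past a log2 fold change of 2 (1.43%). The number was 6 with quantile normalization (8.13%), the protein-coding total (4.17%) or weights (3.79%). It was 7 after median ratio scaling (8.35%), also without WT LPS replicate 3 (15.6%), and 2 to 6 without 1 library (2.98% to 8.3%). The number raised in cGAS-/- BMDMs was 7 (4.76%). It was 3 past a log2 fold change of 2 (1.94%) and 5 with no filter (2.03%) or the protein-coding total (4.35%). With a pseudocount of 5 it was 6 (4.64%), and without 1 library 2 to 7 (3.15% to 9.27%). The number called for the difference of the LPS effect was 0, with 0.9% of all genes called in either direction. It was 1 (Slfn4) after median ratio scaling (1.29%), also without WT LPS replicate 3 (7.06%), and 0 to 1 without 1 library (0.328% to 13.1%). Values that reversed were not called, except for Slfn2 as named below, and the cause was not tested. After median ratio scaling, the genotype difference with LPS was -0.34 for Slfn2, -0.14 for Slfn5 and -0.17 for Slfn8, and with WT LPS replicate 3 left out as well it was -0.70 for Slfn2 (called), -0.33 for Slfn5 and -0.51 for Slfn8. It was -0.36 for Slfn2 and -0.035 for Slfn8 with weights, and -0.052 for Slfn2 with the protein-coding total. Without 1 library it ran from -0.59 (called, without WT LPS replicate 3) to 0.64 for Slfn2, -0.23 to 0.93 for Slfn5 and -0.41 to 0.98 for Slfn8. Without LPS, the genotype difference of Slfn3 was -0.00021 with a pseudocount of 5 and -0.029 with weights, and that of Slfn4 was 0.059 after quantile normalization and 0.0056 with the protein-coding total, and without 1 library they ran from -0.17 to 0.11 and from -0.21 to 0.21. The difference of the LPS effect for Slfn1 was -0.65 with a pseudocount of 5, -0.55 after median ratio scaling, -0.17 with the protein-coding total and -0.18 with median ratio scaling and WT LPS replicate 3 left out. In that last setting it was -0.26 for Slfn2, -0.12 for Slfn5 and -0.12 for Slfn8, and for Slfn9 it was 0.014 with a pseudocount of 0.1. Without 1 library it ran from -0.13 to 0.25 for Slfn1, -0.12 to 1.11 for Slfn2 and -0.35 to 0.26 for Slfn9. Replicate numbers did not pair the libraries, since deviations of same-numbered libraries from their group means correlated at -0.0315 to 0.0383. With the replicate block, 0 members were called between genotypes without LPS (1.43% of all genes) and 0 with LPS (1.51%). In that fit LPS raised 3 members in WT (4.06% of all genes) and 6 in cGAS-/- BMDMs (4.24%).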
